A study of Mus musculus with 2 samples.

Results

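The collagen gene family was examined here in single cells of mouse tibialis anterior muscle, a muscle at the front of the shin. Members were all gene symbols of the form Col, digits, a, digits that had at least 20 UMIs over both libraries. UMIs are the molecular tags by which each captured RNA molecule is counted once. Of 28625 symbols in the files, 44 had this form and 39 reached the minimum. Col25a1 with 23, Col7a1 with 28 and Col9a3 with 35 UMIs lay just inside it, while Col4a6 with 12, Col9a1 with 11, Col19a1 with 6, Col6a4 with 3 and Col10a1 with 1 lay outside.

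The injured group was 1 library from muscle collected 24 hours (1 day) after barium chloride (1.2%), which kills muscle fibres, was injected into it. The uninjured group was 1 library of control muscle. Both came from 12-week-old mice of the strain labelled C57B/6 on standard chow, after protease digestion of the muscle. The label of the control also lists the injection under treatment, and it was taken as uninjured from its title. The number of mice behind a library was not stated.

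Collagens are extracellular matrix proteins built from 3 chains that wind into a triple helix, with glycine recurring at a fixed step along each chain. Fibrillar collagens (types I, II, III, V, XI, XXIV and XXVII) form the cable-like fibrils of tendon and of the connective tissue around muscle fibres, type IV forms the meshwork of basement membranes, and type VI forms beaded filaments between the fibre and its surroundings. Other members sit on fibrils (the FACITs, fibril-associated collagens with interrupted triple helices), form hexagonal networks (type VIII), carry large sugar chains at basement membranes (the multiplexins XV and XVIII) or span the cell membrane. In resting muscle, fibro-adipogenic progenitors, which are mesenchymal cells between the fibres, and tenocytes, the cells of tendon, are known as the main collagen makers.

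The glycine repeat was visible in the coding sequences. In the longest open reading frame of each of the 39 members in GENCODE M21 transcripts, glycine codons (GGN) were sought at steps of 3 codons. The longest unbroken run held 216 to 344 repeats in the 11 fibrillar members, with the 3 lowest values short of 338 in Col24a1 (216), Col27a1 (217) and Col5a3 (337). Runs held 30 repeats in each of the 2 multiplexins and 32 to 113 in the 7 FACITs. The 5 type IV members had runs of 39 to 66 repeats, although runs of at least 5 repeats still covered 75.2% to 79.5% of their codons. Col12a1, a FACIT, had 3065 codons of which 8.19% lay in such runs.

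A pair of members shares its start region, and it is shown because its chains join in 1 molecule and their windows overlap. Col4a1 and Col4a2, the chains of the common type IV trimer, lie head to head on chromosome 8. In RefSeq's table (GRCm38.p6), the Col4a1 window of 250 bases before to 50 bases after its start is chr8:11312777-11313076 on the minus strand. The Col4a2 window is chr8:11312555-11312854 on the plus strand. Their start sites lie 21 bases apart, and the windows share 78 bases, chr8:11312777-11312854, which are in capitals in both lines (each line reads 5′ to 3′ on its own gene's strand, so the capitals of one are the reverse complement of the other).
Col4a1: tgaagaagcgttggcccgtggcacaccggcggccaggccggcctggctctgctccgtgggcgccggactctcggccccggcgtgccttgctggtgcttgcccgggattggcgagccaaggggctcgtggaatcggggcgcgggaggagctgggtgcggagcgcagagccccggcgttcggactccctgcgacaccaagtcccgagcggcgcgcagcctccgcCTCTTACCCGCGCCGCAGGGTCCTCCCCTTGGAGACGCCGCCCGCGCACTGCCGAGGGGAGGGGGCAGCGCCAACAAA
Col4a2: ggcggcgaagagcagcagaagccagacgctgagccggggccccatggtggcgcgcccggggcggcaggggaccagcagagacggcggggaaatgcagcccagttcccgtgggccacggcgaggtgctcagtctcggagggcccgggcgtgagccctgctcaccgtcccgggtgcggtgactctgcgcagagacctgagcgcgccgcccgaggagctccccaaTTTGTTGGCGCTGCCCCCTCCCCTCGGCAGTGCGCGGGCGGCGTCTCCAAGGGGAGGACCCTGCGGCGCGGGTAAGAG

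Windows were found for 30 of the 39 members, 32 windows in all. The letters GGGCGG, a core of binding sites for the Sp1 family of general promoter factors, were on either strand of 21 of these 32 windows (65.6%), against 35.7% of all 32851 promoter windows in the table. CCAAT was in 34.4% of the members' windows and 37.4% of all windows, and TATAAA in 12.5% and 13.6%. These counts describe letters in a window, not sites of binding.

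The injured library held 4489 barcodes and 39014762 UMIs (median 7282 per barcode), and the uninjured library 5581 barcodes and 22994502 UMIs (median 3237). After filters, 4260 injured and 5136 uninjured cells were clustered without the collagen genes and named from marker genes, and 6 classes reached 50 cells in both libraries. Xist had 0 UMIs in the injured and 17744 in the uninjured library, whereas Y-linked genes had 4698 and 0, so the sex of the mice and the injury cannot be told apart. The libraries shared 33 cell barcodes. With 1 library of each group there was no replicate and no test between the groups. A level below is the sum over the cells of a class, scaled to 1000000 UMIs of that class (CPM), each RNA molecule giving 1 tag at its 3′ end whatever its length. Intervals are exact 95% intervals that cover counting error only. A member is called lower or higher when the ratio of CPM is at least 2-fold, with a count below 3 on the lower side raised to 3 for the call alone. The ratios printed for counts of 1 or 2 use the counts themselves, and those against 0 UMIs use 3.

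The family as a whole took up a far smaller share of the RNA in the injured connective tissue cells. In tenocyte-like cells (153 injured, 444 uninjured) collagen UMIs were 0.709% of all UMIs in the injured library, against 4.91% in the uninjured library, which is 6.93-fold lower (6.81 to 7.05). In fibro-adipogenic progenitor-like (FAP-like) cells (421 injured, 768 uninjured) the shares were 0.319% and 2.08%, which is 6.51-fold lower (6.41 to 6.61). Glial-like cells, the Schwann cell lineage of nerve, had 0.158% and 0.345%, which is 2.18-fold lower (1.98 to 2.41). Endothelial-like cells had 0.165% and 0.188%, a ratio of 0.874 (0.848 to 0.900). The markers that named these last classes were lower as well, with 10901 CPM in injured and 26266 CPM in uninjured glial-like cells, and 13277 and 39256 CPM in endothelial-like cells, and their part in the collagen values was not tested.

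Cells of the injured library held more UMIs each, which separates the share of RNA from the number of molecules per cell. FAP-like cells held a median of 13692 UMIs in the injured and 3962 in the uninjured library, and tenocyte-like cells 11352 and 4563.5. Collagen UMIs per cell were 50.1 and 90.4 in FAP-like cells and 93.0 and 259.7 in tenocyte-like cells, so the family sum was lower in these 2 classes on both scales. In endothelial-like cells it was 12.9 per injured and 6.49 per uninjured cell, the opposite direction to CPM. A scaling by the median ratio over genes also turned the endothelial-like ratio to 1.01. Whether fewer molecules, more RNA of other genes or a different capture sets these ratios was not tested.

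**Figure D1:**
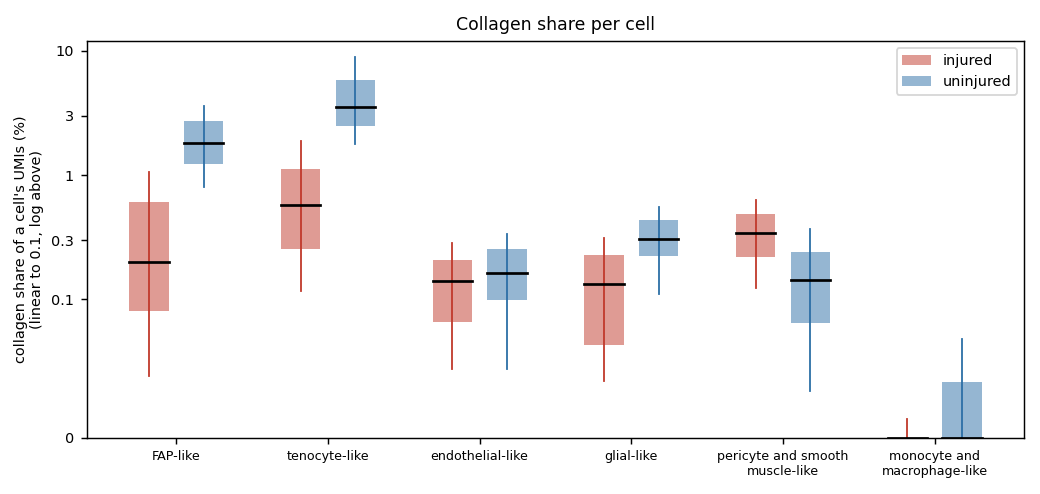
Collagen share of each cell's UMIs (%, y axis, linear up to 0.1 and logarithmic above) by cell class, with injured cells in red on the left and uninjured cells in blue on the right of each pair. Boxes run between the 25th and 75th percentiles of the cells, black lines are medians and thin lines reach the 10th and 90th percentiles. Injured FAP-like and tenocyte-like cells sit below the uninjured ones with medians of 0.201% and 0.571%, against 1.82% and 3.50%.

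The lower share was seen over most single cells and not in a few. The median FAP-like cell had 0.201% collagen UMIs in the injured and 1.82% in the uninjured library. The 90th percentile of injured FAP-like cells was 1.05%, below the uninjured 25th percentile of 1.22%. Tenocyte-like medians were 0.571% and 3.50%, and the injured 90th percentile of 1.86% was below the uninjured 25th percentile of 2.47%. No uninjured FAP-like cell lacked a collagen UMI, while 8 of 421 injured cells did.

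Counted gene by gene, 27 of the 39 members had at least 20 UMIs in FAP-like cells. There 24 were lower, 1 was higher and 2 lay within 2-fold in the injured library, with a median log2 ratio of -2.91. Over all 11315 genes with that many UMIs in these cells, 28.1% were lower, 15.2% were higher and the median was -0.27. In tenocyte-like cells 25 of 28 members were lower, none was higher and 3 lay within 2-fold (median -2.45), against 21.8% lower and 9.98% higher among 9620 genes (median -0.22). The whole interval lay past 2-fold for 23 of the 24 lower members in FAP-like and for 21 of the 25 in tenocyte-like cells. A member with 0 UMIs in 1 library was given no interval and was counted as not past 2-fold, so these counts are minimums. They were 4 of 11 lower and 2 of 2 higher in endothelial-like cells, and 3 of 10 lower and 0 of 3 higher in glial-like cells. Pericyte and smooth muscle-like cells had 0 of 1 lower and 4 of 6 higher, and monocyte and macrophage-like cells 9 of 10 lower. The same was not counted over all genes. Of 22 members with enough UMIs in both FAP-like and tenocyte-like cells, 17 were lower in both and 1, Col27a1, in neither. The share of all genes lower in both classes was not counted, so this overlap has no background beside it. The remaining 12 members in FAP-like and 11 in tenocyte-like cells did not reach 20 UMIs and are outside these counts.

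**Figure D2:**
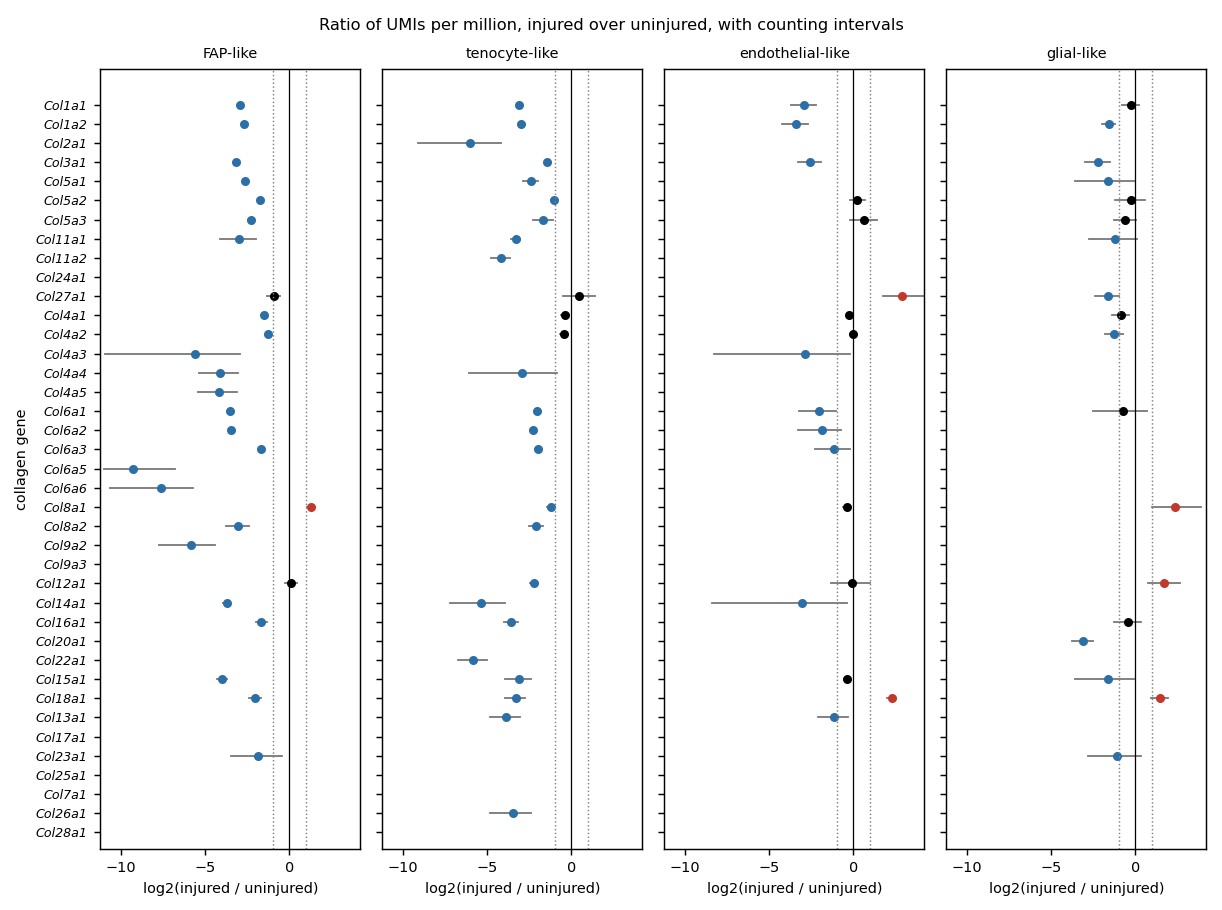
Log2 ratio of CPM, injured over uninjured (x axis), for each collagen gene (y axis, in structural groups) in 4 classes. Points are ratios (blue, at least 2-fold lower; red, at least 2-fold higher; black, within 2-fold or under the limit of 3 counts), lines are 95% counting intervals cut off at the edges of a panel, and dotted lines mark 2-fold; members with 0 UMIs in one library or fewer than 20 in both are not drawn. Nearly all points of the FAP-like and tenocyte-like panels lie left of -1, with Col8a1 the 1 red point among FAP-like cells.

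The fibrillar members set the family sum, since they made up 69.5% of collagen UMIs in injured and 76.2% in uninjured FAP-like cells, and 83.5% and 90.3% in tenocyte-like cells. Col1a1 and Col1a2 encode the 2 chains of type I collagen. Tenocyte-like cells held 2098 CPM of Col1a1 in the injured and 18439 CPM in the uninjured library, 8.79-fold lower (8.51 to 9.07). Their Col1a2 level was 2825 CPM in the injured and 22534 CPM in the uninjured library, 7.98-fold lower (7.76 to 8.20). FAP-like cells held 435 and 3255 CPM of Col1a1, 7.49-fold lower (7.19 to 7.81), and 687 and 4403 CPM of Col1a2, 6.41-fold lower (6.20 to 6.63). Col1a1 was thus lower by a somewhat larger factor than Col1a2 in each class, with intervals that did not overlap. There were 0.632 Col1a1 UMIs for each Col1a2 UMI in injured FAP-like cells (0.603 to 0.663) and 0.739 in uninjured ones (0.721 to 0.758). In tenocyte-like cells the ratio was 0.743 (0.714 to 0.773) and 0.818 (0.808 to 0.829).

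Col3a1, the single chain of type III collagen, which mixes with type I in soft tissue, was the highest member of FAP-like cells. It had 760 CPM there in the injured and 6786 CPM in the uninjured library, 8.93-fold lower (8.66 to 9.21). In tenocyte-like cells it was lower by a smaller factor, with 656 CPM in the injured and 1801 CPM in the uninjured library, 2.75-fold (2.58 to 2.92). There were thus 0.313 Col3a1 UMIs for each Col1a1 UMI in injured tenocyte-like cells (0.294 to 0.333) and 0.0977 in uninjured ones (0.0946 to 0.101). Per cell, Col3a1 counts in tenocyte-like cells were close, at 8.61 and 9.53 UMIs.

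Thinning every cell to 1843 UMIs removed the difference in depth. A Col1a1 UMI was then seen in 43.2% of injured and 95.7% of uninjured FAP-like cells, against 80.3% and 98.6% without thinning. In monocyte and macrophage-like cells, which are not among the main collagen makers, the thinned shares were 0.445% and 9.23%. Col3a1 gave 47.7% and 97.0% of thinned FAP-like cells.

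Type V chains, which start and limit fibril growth, were lower by a smaller factor for Col5a2 than for Col5a1 and Col5a3. In FAP-like cells Col5a1 had 59.6 CPM in the injured and 363 CPM in the uninjured library, 6.09-fold lower (5.43 to 6.84). Col5a2 had 187 and 626 CPM, 3.35-fold lower (3.12 to 3.60). Per cell, Col5a2 counts were 2.94 and 2.73 UMIs, and in tenocyte-like cells 2.73 and 2.26, so this member was not lower on that scale. Col5a3 had 69.4 and 336 CPM in FAP-like cells, 4.84-fold lower (4.34 to 5.41).

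The type XI chains, which nucleate thin fibrils in cartilage and tendon, and Col2a1, the type II chain of cartilage, were found mainly in tenocyte-like cells. Col11a1 had 63.7 CPM in injured and 621 CPM in uninjured tenocyte-like cells, 9.74-fold lower (8.13 to 11.8). Col11a2 had 13.9 and 253 CPM, 18.2-fold lower (12.4 to 27.6). Col2a1 had 2 UMIs in the injured and 153 in the uninjured library, a ratio of 65.4-fold with a counting interval of 17.8 to 545. Col24a1 stayed at low counts in every class, with 0 and 20 UMIs in tenocyte-like cells.

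Col27a1, a fibrillar chain with a shorter helix, was not called lower in either connective tissue class, though it was in glial-like cells (below). It lay within 2-fold in tenocyte-like cells, on few UMIs (22 injured, 19 uninjured). In FAP-like cells it was lower, but just short of 2-fold (17.8 CPM injured, 33.8 CPM uninjured). In endothelial-like cells it was 7.47-fold higher (3.39 to 18.1), with 26 injured and 9 uninjured UMIs.

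**Figure D3:**
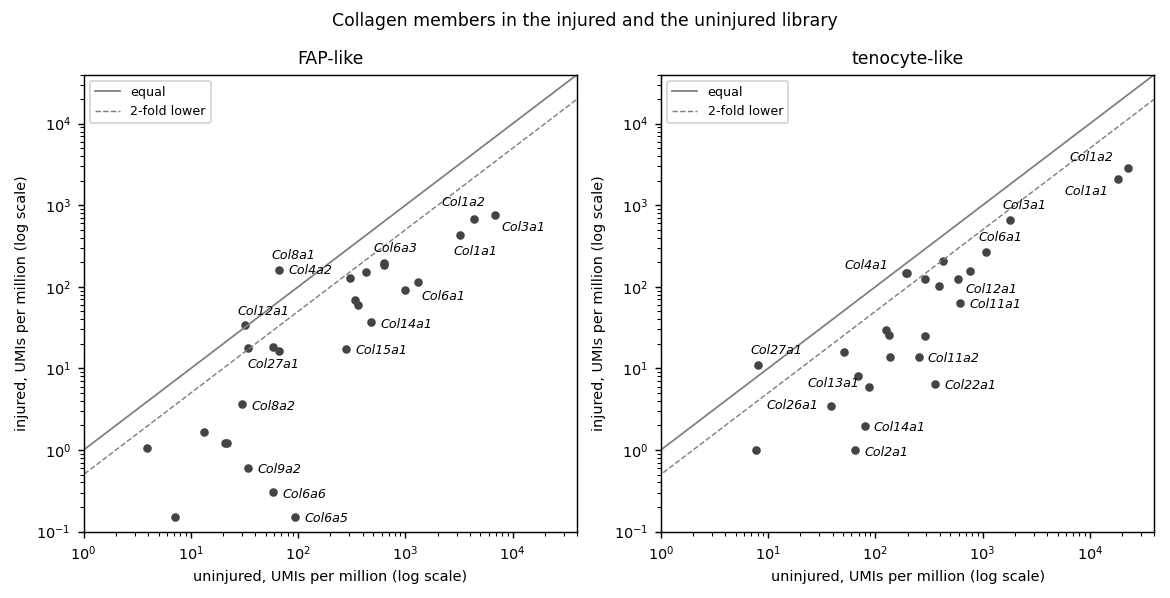
Level of each collagen member with at least 20 UMIs in the class, in CPM in the injured (y axis, log scale) against the uninjured library (x axis, log scale), for FAP-like (left) and tenocyte-like cells (right). The solid line marks equal levels and the dashed line a 2-fold lower injured level; members at 0 in the injured library are not drawn. Col8a1 (160 against 66.4 CPM) lies above the solid line among FAP-like cells, and Col6a5, Col6a6 and Col9a2 lie far below the dashed line.

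Type VI collagen is made from Col6a1, Col6a2 and another chain, which is usually Col6a3. In FAP-like cells Col6a1 had 114 CPM in the injured and 1308 CPM in the uninjured library, 11.5-fold lower (10.6 to 12.4). Col6a2 followed it, with 90.4 and 986 CPM, 10.9-fold lower (9.99 to 11.9). Col6a3 was lower by a smaller factor, with 195 and 636 CPM, 3.27-fold (3.05 to 3.50), and it had 3.06 UMIs per injured and 2.77 per uninjured cell.

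The balance of the type VI chains therefore differed between the libraries in FAP-like cells. There were 2.15 Col6a3 UMIs for each Col6a2 UMI in injured FAP-like cells (1.95 to 2.38) and 0.645 in uninjured ones (0.610 to 0.681). In tenocyte-like cells the same ratio was 0.640 (0.534 to 0.766) and 0.512 (0.472 to 0.554). The ratio of Col6a1 to Col6a2 was 1.26 (1.13 to 1.40) and 1.33 (1.27 to 1.39) in FAP-like cells.

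Col6a5 and Col6a6, the alternatives to Col6a3 that reached the minimum, had almost all of their FAP-like UMIs in the uninjured library. Col6a5 had 1 UMI in injured and 313 in uninjured FAP-like cells, a ratio of 619-fold with a counting interval of 110.2 to 24514. Col6a6 had 2 and 196 UMIs, 194-fold (52.9 to 1611). Within uninjured FAP-like cells they marked cluster 15, led by Pi16 and Smpd3, with 268 CPM of Col6a5 and 119.5 CPM of Col6a6, against 14.5 and 34.9 CPM in cluster 7, led by Myoc and Smoc2. Injured FAP-like cells lay almost wholly in another cluster, 10, led by Cxcl5 and Il1rl1, with 401 of 421 cells there and 3 in cluster 15.

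Those cluster differences bear on every FAP-like value. The summed level of the 12 marker genes that named the class was 9786 CPM in injured and 61337 CPM in uninjured FAP-like cells, so the markers were lower too, and their part in the collagen result was not tested. Only 14 injured cells fell in cluster 7, where most uninjured cells lay (452). Collagens made up 1.70% of the UMIs of those 14 injured cells (1.61 to 1.79) and 2.11% of the uninjured cells of cluster 7 (2.09 to 2.13), against 0.298% of injured cluster 10 (0.294 to 0.302). For tenocyte-like cells the summed markers were closer, 24439 and 30828 CPM, yet the 153 injured cells lay in cluster 18 but for 1, and the uninjured ones in clusters 13 (260 cells, 5.90% collagen UMIs) and 17 (182 cells, 3.19%).

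Type VIII collagen, a network former of vessel walls and of the lining of the cornea, gave the 1 higher member of FAP-like cells. Col8a1 had 160 CPM in the injured and 66.4 CPM in the uninjured library, 2.42-fold higher (2.09 to 2.81). After thinning, 20.2% of injured and 7.29% of uninjured FAP-like cells had a Col8a1 UMI, while 0.202% and 0% of monocyte and macrophage-like cells did. The call was lost when doublets were kept (1.35-fold) and at a clustering resolution of 0.5 (1.36-fold). Its partner chain Col8a2 was 8.32-fold lower (5.29 to 13.6), with 3.63 and 30.2 CPM. There were 44.2 Col8a1 UMIs for each Col8a2 UMI in injured FAP-like cells (29.5 to 69.3) and 2.20 in uninjured ones (1.73 to 2.81). In tenocyte-like cells both were lower, Col8a1 2.32-fold (124 and 288 CPM) and Col8a2 4.22-fold (29.9 and 126 CPM).

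The FACITs differed in where they were found. Col22a1, a member known from the junction between muscle and tendon, was seen almost only in tenocyte-like cells, with 13 UMIs in the injured and 852 in the uninjured library, 56.0-fold lower (32.6 to 106). In uninjured muscle it was in cluster 17 at 1004 CPM, and it had fewer than 3 UMIs in cluster 13. Col14a1, which regulates fibril diameter, had 36.6 CPM in injured and 481 CPM in uninjured FAP-like cells, 13.2-fold lower (11.5 to 15.1), and 4 against 188 UMIs in tenocyte-like cells, 40.2-fold lower (15.4 to 149). Col12a1, a stress-responsive relative of Col14a1, lay within 2-fold in FAP-like cells (33.7 and 32.0 CPM) and was 4.74-fold lower (4.14 to 5.45) in tenocyte-like cells (125 and 593 CPM). Col16a1 was 3.17-fold lower in FAP-like (18.3 and 58.0 CPM) and 11.8-fold lower in tenocyte-like cells (24.9 and 294 CPM). Col9a2, a type IX chain best known from cartilage, had 4 UMIs in injured and 115 in uninjured FAP-like cells, and 413 CPM in cluster 26, a group of 60 uninjured cells.

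Col13a1, a membrane collagen of junctions, had 5.98 CPM in injured and 86.8 CPM in uninjured tenocyte-like cells, 14.5-fold lower (8.14 to 28.6). Col26a1 had 7 and 91 UMIs there, 11.1-fold lower (5.18 to 28.4). Col17a1, Col25a1 and Col7a1 had fewer than 20 UMIs in each class compared, and Col23a1, Col28a1 and Col9a3 had their highest uninjured levels in lymphatic endothelial-like cells (62.5 CPM) and glial-like cells (19.4 and 23.6 CPM). Col17a1 had 105 UMIs over all uninjured barcodes, but only 9 in endothelial-like cells, its highest uninjured class. Most of its UMIs thus lay in barcodes outside the classes shown.

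The multiplexins were lower in both connective tissue classes. Col15a1 had 17.4 CPM in injured and 280 CPM in uninjured FAP-like cells, 16.1-fold lower (13.2 to 19.7), and 7.97 and 68.9 CPM in tenocyte-like cells, 8.65-fold lower (5.17 to 15.5). Col18a1 had 16.2 and 66.4 CPM in FAP-like cells, 4.10-fold lower (3.24 to 5.21), and 13.9 and 138 CPM in tenocyte-like cells, 9.92-fold lower (6.74 to 15.2). Per FAP-like cell, Col18a1 counts were close, at 0.254 and 0.289 UMIs.

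The basement membrane chains Col4a1 and Col4a2 were lower by smaller factors than the type I chains, or within 2-fold. In tenocyte-like cells Col4a1 lay within 2-fold (148 CPM injured, 193 CPM uninjured), as did Col4a2 (147 and 199 CPM). Per tenocyte-like cell both were higher in the injured library, with 1.94 and 1.02 UMIs of Col4a1, and 1.93 and 1.05 UMIs of Col4a2. In FAP-like cells Col4a1 was 2.87-fold lower (2.65 to 3.12) with 151 and 434 CPM, and Col4a2 2.39-fold lower (2.18 to 2.62) with 128 and 307 CPM. Per cell, both had more UMIs in injured FAP-like cells, 2.38 and 1.89 for Col4a1, and 2.02 and 1.34 for Col4a2. Type IV took up 8.85% of collagen UMIs in injured and 3.81% in uninjured FAP-like cells, and 4.17% and 0.818% in tenocyte-like cells. The rarer chains Col4a3, Col4a4 and Col4a5 had 1, 8 and 8 UMIs in injured and 24, 70 and 72 in uninjured FAP-like cells.

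Ratios between partner chains were compared over class and library pairs with at least 100 UMIs of both chains together. The ratio of Col4a1 to Col4a2 lay between 0.873 and 1.60 over 12 pairs. Col6a1 to Col6a2, genes 85162 bases apart on 1 strand, spanned 1.26 to 2.26 over 7 pairs. The upper ends of these 2 ranges rested on few UMIs. They were 85 and 53 in injured monocyte and macrophage-like cells for type IV, and 77 and 34 in uninjured satellite cell-like cells for type VI. The ranges cover different pairs, and a part of the shared start region in them was not tested. Col1a1 to Col1a2 spanned 0.258 to 1.25 over 10 pairs. In endothelial-like cells the type IV ratio was 0.911 (0.860 to 0.964) in the injured and 1.05 (1.02 to 1.09) in the uninjured library. In FAP-like cells it was 1.18 (1.07 to 1.29) and 1.42 (1.31 to 1.54).

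**Figure D4:**
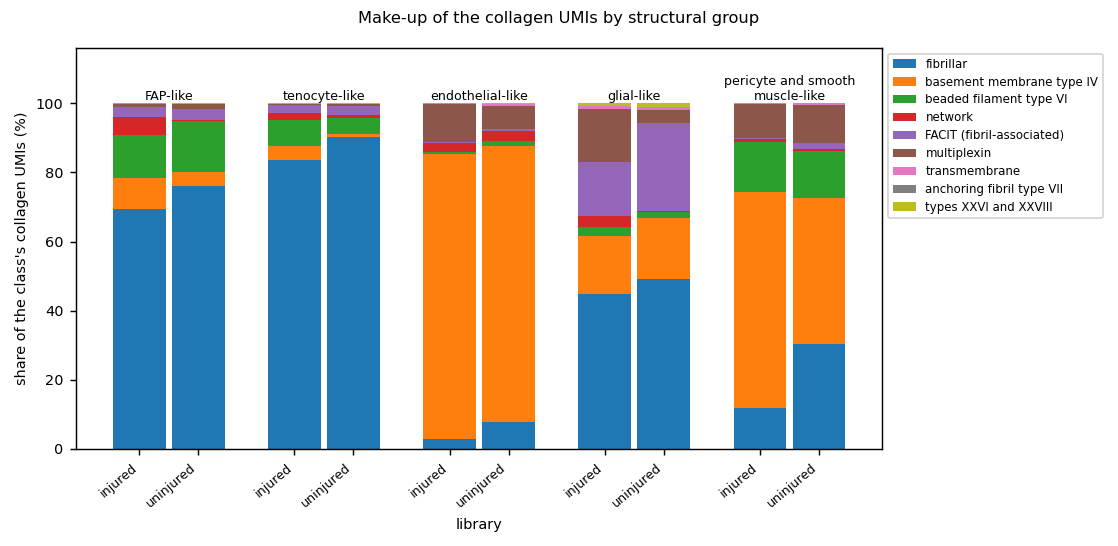
Share of each class's collagen UMIs (%, y axis) that fell in each structural group (colours), with the injured library on the left and the uninjured library on the right of each class. Type IV made up 82.5% and 79.9% in endothelial-like cells, and fibrillar members 83.5% and 90.3% in tenocyte-like cells.

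Endothelial-like cells line the blood vessels and had mostly basement membrane collagens. Col4a1 had 647 CPM in the injured and 770 CPM in the uninjured library, and Col4a2 710 and 731 CPM, both within 2-fold. Per cell the direction was the opposite, with 5.06 and 2.65 UMIs of Col4a1, and 5.56 and 2.52 UMIs of Col4a2. Col15a1, a multiplexin of vessel basement membranes, was also within 2-fold (80.2 and 105 CPM). Col18a1, the multiplexin whose end fragment is endostatin, was 4.80-fold higher (4.02 to 5.75), with 101 CPM in the injured and 21.1 CPM in the uninjured library.

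In all, 2 of 20 members were higher and 11 lower in endothelial-like cells, against 10.6% higher and 20.4% lower among 11234 genes. The lower members included Col1a1, with 4.82 and 35.9 CPM, a level near that of monocyte and macrophage-like cells (3.02 and 68.1 CPM), so these counts cannot be told from free RNA of other cells. The libraries again filled different clusters, with 338 of 451 injured cells in cluster 12, led by Pgf and Apln, and 30 of 2648 uninjured cells there. In cluster 11, led by Selp and Ackr1, which held 52 injured and 337 uninjured cells, Col18a1 was 4.52-fold higher (3.10 to 6.65) and Col4a1 had 477 and 304 CPM, a ratio of 1.57 (1.34 to 1.84). The family ratio in cluster 11 was 1.25, the opposite direction to that of the class. In cluster 12 the collagen share was 0.170% of injured (0.165 to 0.175) and 0.292% of uninjured UMIs (0.261 to 0.326), the direction of the class. It was also lower in the few injured cells of clusters 1 (17 cells, 0.194% and 0.225%), 4 (14 cells, 0.172% and 0.220%) and 6 (13 cells, 0.156% and 0.168%), and higher in those of cluster 23 (17 cells, 0.155% and 0.115%).

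Glial-like cells carried their own set. Col20a1, a FACIT, had 82.8 CPM in the injured and 717 CPM in the uninjured library, 8.65-fold lower (5.80 to 13.5), and no more than 4.38 CPM in any other uninjured class. Col1a2 was lower with a ratio of 0.333 (0.257 to 0.426), with 242 and 727 CPM, Col3a1 4.61-fold lower (2.80 to 8.09), with 56.3 and 260 CPM, and Col27a1 3.12-fold lower (1.95 to 5.26), with 66.3 and 207 CPM. Col18a1 was 2.70-fold higher (1.88 to 3.87), Col12a1 3.18-fold higher (1.65 to 6.22) and Col8a1 5.11-fold higher (1.96 to 14.8).

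Of the 19 members with enough UMIs, 10 were lower (21.6% of 6164 genes were) and 3 higher (8.39% of genes were). The Col20a1 and Col27a1 differences followed the clusters. Cluster 22, with Bche among its leading genes, held 5 injured and 117 uninjured cells, and its uninjured cells had 1547 CPM of Col20a1 and 378 CPM of Col27a1. In cluster 19, with Cldn19 among its leading genes and 46 injured and 107 uninjured cells, Col20a1 had 6 and 0 UMIs and Col27a1 15 and 1, the opposite direction. Within cluster 19 Col1a2 was lower, with 238 and 615 CPM (ratio 0.387, 0.286 to 0.516), and Col18a1 had 128 and 93.6 CPM (ratio 1.37, 0.814 to 2.32).

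The pericyte and smooth muscle-like class, the cells wrapped around vessels, was not alike in the 2 libraries. Its 122 injured cells lay in cluster 31, led by Gpr176 and Phox2a, but for 4 in cluster 33, and its 54 uninjured cells lay in cluster 33, led by the smooth muscle genes Pln, Myh11 and Cnn1, but for 1. The summed markers of the class were 5975 CPM in the injured and 40369 CPM in the uninjured library, whereas endothelial markers summed to 6314 and 2498 CPM. Endothelial markers thus stood above the class's own in the injured cells and moved with the higher collagens, and their part in these values was not tested. Here 6 of 15 members were higher (22.4% of 7542 genes were) and 1 lower (11.7% of genes were). Col4a1 had 1267 CPM in the injured and 401 CPM in the uninjured library, Col15a1 206 and 19.5 CPM, Col5a3 102 and 19.5 CPM, and Col18a1 185 and 207 CPM. With classes given per cell from marker scores, which assigned 152 injured and 319 uninjured cells, the family ratio was 1.23, against 1.94 by clusters.

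Monocyte and macrophage-like cells (2473 injured, 130 uninjured) are not among the main collagen makers named above. They had 0.00288% collagen UMIs in the injured and 0.0554% in the uninjured library. Here 10 of 11 members were lower, against 23.7% of 10147 genes, and none was higher, against 8.54% of genes. A majority of their cells had no collagen UMI, 2047 of 2473 and 67 of 130. A single uninjured cell held 99 of the 301 collagen UMIs of the uninjured class, so that level leans on few cells. There were 2.35 Col3a1 UMIs for each Col1a1 UMI in the uninjured library (1.58 to 3.55). In the injured library the ratio was 1.16, with an interval that spans equal counts (0.799 to 1.70). Free RNA was not measured by itself.

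**Figure D5:**
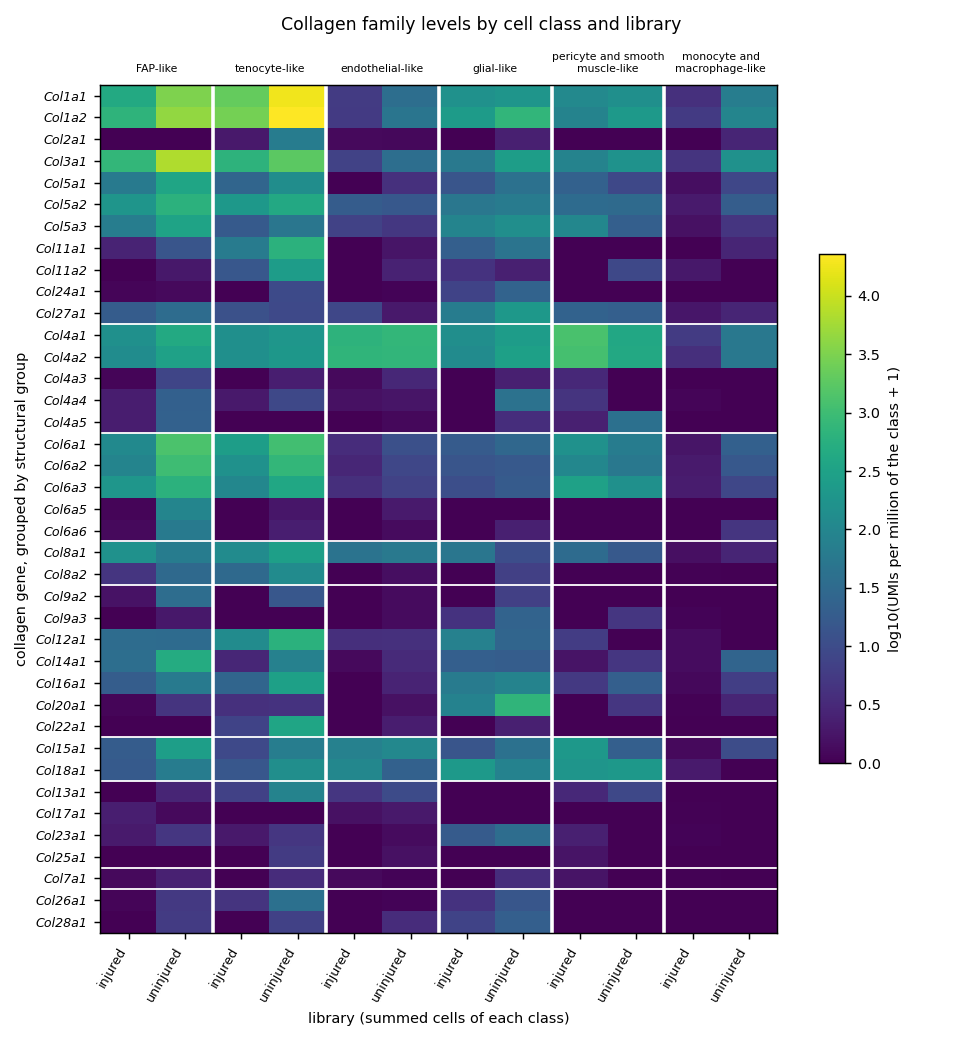
Level of the 39 collagen members (rows, in structural groups divided by white lines) in 6 classes of each library (columns, injured left and uninjured right of each class), as log10 of CPM plus 1 (colour). Col1a1 and Col1a2 are brightest in uninjured tenocyte-like cells at 18439 and 22534 CPM, and Col4a1 and Col4a2 stand out in endothelial-like and injured pericyte and smooth muscle-like cells.

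Some classes had 50 cells in the uninjured library only. Satellite cell-like cells (247), the muscle stem cells, had 283 CPM of Col3a1 and 26.4 CPM of Col26a1. Lymphatic endothelial-like cells (53) had 294 CPM of Col18a1, the highest level of that member in the uninjured library, and 62.5 CPM of Col23a1. By the highest class with more than 3 UMIs, 13 of 38 members peaked in tenocyte-like and 13 in FAP-like cells of the uninjured library, and 12 of 29 and 6 of 29 in the injured library.

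The other genes of the collagen pathway were read against all genes, of which 28.1% were lower and 15.2% higher in FAP-like cells, and 21.8% and 9.98% in tenocyte-like cells. Of 16 genes for hydroxylation, glycosylation and folding with at least 20 UMIs, 3 were lower and none higher in both FAP-like (median log2 ratio -0.08) and tenocyte-like cells (-0.36), a share of lower genes not above that of all genes. Serpinh1, the collagen chaperone HSP47, had 1310 CPM in injured and 1482 CPM in uninjured FAP-like cells and 1570 and 2068 CPM in tenocyte-like cells, and P4hb and Ppib also lay within 2-fold. The lower genes of tenocyte-like cells were the prolyl hydroxylases P4ha1 (3.72-fold, 3.15 to 4.41) and P3h3 (5.04-fold, 3.77 to 6.83) and the hydroxylase partner Crtap (2.33-fold, 1.99 to 2.74). None of 8 export genes was higher or lower in either class.

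Among genes for procollagen cleavage and crosslinking, 5 of 11 were lower and 3 higher in FAP-like cells (median -0.33), and 6 of 10 lower and 1 higher in tenocyte-like cells (-1.72), beside 28.1% and 21.8% lower among all genes. Lox, the lysyl oxidase that starts crosslinks, had 2201 CPM in injured and 556 CPM in uninjured tenocyte-like cells, 3.96-fold higher (3.72 to 4.21). It had 161 and 71.4 CPM in FAP-like cells, 2.26-fold higher (1.96 to 2.61). Loxl2, its relative, was 5.94-fold lower in tenocyte-like cells (4.78 to 7.45). The N-propeptidases Adamts3 (4 and 41 UMIs) and Adamts2 (5.49-fold, 4.45 to 6.82) and the C-propeptidase Bmp1 (3.76-fold, 2.66 to 5.44) with its enhancers Pcolce (3.65-fold) and Pcolce2 (2.96-fold) were lower there as well.

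For receptors, 3 of 6 genes in FAP-like (median -1.26) and 5 of 8 in tenocyte-like cells (-1.31) were lower and none higher, beside the same 28.1% and 21.8% of all genes lower. Those of tenocyte-like cells were the integrin chains Itga10 (3 and 48 UMIs), Itga2 (0 and 31 UMIs, at least 8.83-fold lower), Itga1 (2.50-fold) and Itga11 (2.46-fold) and the uptake receptor Mrc2 (2.83-fold). For breakdown and uptake, 8 of 12 were lower and 3 higher in FAP-like cells (-1.54), and 7 of 11 lower and 2 higher in tenocyte-like cells (-1.47), beside the same shares of all genes. The higher ones in tenocyte-like cells were the stromelysin Mmp3, with 532 and 8.94 CPM, and the metalloproteinase inhibitor Timp1, with 4643 and 506 CPM. Timp2 was 4.58-fold, Timp3 3.91-fold, Mmp2 3.40-fold, Ctsk 2.81-fold, Fap 2.77-fold and Mmp14 2.43-fold lower in the same cells.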

How the data were processed

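Droplet single-cell libraries (10x 3′ chemistry, version 2) were made from 1 injured and 1 uninjured muscle sample. The deposited matrices hold raw UMI counts per gene and barcode, and per the submitters' processing notes they name Cell Ranger 2.1.1 and mm10. The count of a gene is of molecules, so no length correction was made.

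Barcodes with under 200 genes (64 injured, 178 uninjured) or with mitochondrial UMIs above 20% (4 and 18) were removed. Scrublet's automatic threshold marked 1 barcode in each library, so a share of top-scoring barcodes was removed instead, 0.8% for every 1000 barcodes (161 and 249). Cells were scaled to 10000 UMIs, and 2000 variable genes without the collagens, 30 principal components, 15 neighbours and Leiden resolution 1 (seed 0) gave the clusters, with scanpy 1.11.5, leidenalg 0.10.2, scikit-learn 1.9.0 and Python 3.11.15. A cluster was named from 16 marker lists when at least 3 markers were present in 20% of its cells and at 2 times the median cluster, a naming rule set after the data were seen. Clusters in which a rival type's markers were nearly as often present and reached 25% of their level in that type's own clusters counted as mixed, and 20 injured and 360 uninjured cells in mixed or unnamed clusters stayed out of the classes. Cluster 31 (pericyte and smooth muscle-like) was kept, since its endothelial markers had a median level of 0.166 times that of the highest endothelial cluster.

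UMIs were summed by class and library, and exact Poisson, conditional binomial and Clopper-Pearson 95% intervals (scipy 1.17.1, numpy 2.4.6) cover counting error only. Counts under 3 in a library and class were raised to 3 for calls, and in printed ratios where the count was 0. Values are given for members with at least 100 UMIs in some class, there and where the level reached 10% of it, and for pathway genes past 2-fold in tenocyte-like cells (at most 8 for each list, by size). Others named were chosen after their values were seen. Calls are by size, since no test is possible with 1 library for each group. The steps that count and call were tested on simulated data. Alternatives were kept doublets, classes from marker scores, deeper cells, median-ratio scaling, means per cell, collagens in the clustering, another resolution, other minimums and thinning. UMIs per cell and single shared clusters were added after the data were seen. The members, gene lists and alternatives were chosen with earlier results of these data known. Figures were drawn with matplotlib 3.10.9.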

Additional observations from a re-analysis of the deposited data

How the results depend on the processing

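No paired analysis was possible because each group is 1 library, and for the same reason no replicate could be left out. Ratios are injured over uninjured. The single shared cluster could not be run for FAP-like and tenocyte-like cells, since none of their clusters held 40 cells of each library. In cluster 7, with 14 injured FAP-like cells, collagens made up 1.70% of injured and 2.11% of uninjured UMIs. The family ratio stayed below 1 in FAP-like (0.154) and tenocyte-like cells (0.144) under every alternative run. In FAP-like cells it was 0.149 with doublets kept, 0.162 by marker scores, 0.186 with median-ratio scaling, 0.198 as a mean of cells, 0.161 with collagens in the clustering, 0.148 at resolution 0.5 and 0.554 per cell. In tenocyte-like cells it was 0.141 with doublets kept, 0.139 in cells with at least 3333 UMIs, 0.168 with median-ratio scaling, 0.176 as a mean of cells, 0.136 at resolution 0.5 and 0.358 per cell. In endothelial-like cells (0.874) it turned to 1.01 with median-ratio scaling, 1.98 per cell and 1.25 in cluster 11, and was 0.902 by marker scores and 0.951 at resolution 0.5. In glial-like cells (0.458) it was 0.411 by marker scores, 0.531 with median-ratio scaling, 0.931 per cell and 0.565 in cluster 19. In monocyte and macrophage-like cells (0.0520) it was 0.140 by marker scores, 0.0435 in cells with at least 3333 UMIs, 0.0613 with median-ratio scaling, 0.0825 as a mean of cells and 0.0919 per cell. In pericyte and smooth muscle-like cells (1.94) it was 1.63 with doublets kept, 1.23 by marker scores, 1.55 with median-ratio scaling and 4.73 per cell.

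The number of lower members fell per cell to 14 in FAP-like, 16 in tenocyte-like, 3 in endothelial-like, 3 in glial-like and 0 in pericyte and smooth muscle-like cells. Moving to that scale raised the log2 ratio of every gene. The shift was 1.85 in FAP-like, 1.31 in tenocyte-like, 1.18 in endothelial-like, 1.02 in glial-like and 1.29 in pericyte and smooth muscle-like cells. In endothelial-like cells 7 were lower by marker scores, 7 in cells with at least 3333 UMIs, 4 at a minimum of 100 UMIs and 4 in cluster 11. In glial-like cells 5 were lower at 100 UMIs and 5 in cluster 19. In monocyte and macrophage-like cells 6 were lower by marker scores, 3 at 100 UMIs and 20 at 1 UMI. In pericyte and smooth muscle-like cells 2 were lower with doublets kept, 2 in deeper cells, 2 with median-ratio scaling and 5 at 1 UMI. The number of higher members was 6 in endothelial-like, 2 in FAP-like, 12 in pericyte and smooth muscle-like and 1 in tenocyte-like cells per cell. It was 1 in endothelial-like cells by marker scores, at 100 UMIs and in cluster 11, 0 in FAP-like cells with doublets kept and at resolution 0.5, 1 in glial-like cells at 100 UMIs, and 2 in pericyte and smooth muscle-like cells by marker scores. The shares of all genes lower or higher were not counted under these alternatives. The counts therefore cannot be set against all genes, as the main ones were.

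Among members at least 2-fold lower in CPM, the ratio per cell was above 1 for Col4a1 (1.26), Col4a2 (1.51), Col5a2 (1.08), Col6a3 (1.10) and Col16a1 (1.14) in FAP-like cells and for Col5a2 (1.21) and Col8a1 (1.07) in tenocyte-like cells. Counting every member compared, more UMIs per injured cell were found for 8 of 27 in FAP-like, 5 of 28 in tenocyte-like, 11 of 20 in endothelial-like, 9 of 19 in glial-like, 14 of 15 in pericyte and smooth muscle-like and 1 of 11 in monocyte and macrophage-like cells. The same count over all genes was not made. Injured cells held more UMIs of all genes together. The median log2 ratio over all genes with at least 20 UMIs was -0.27 in FAP-like and -0.22 in tenocyte-like CPM. With the shifts of 1.85 and 1.31 to the scale per cell, the median gene lay above a ratio of 1 in both classes. In cluster 19 alone the direction turned for Col20a1 (2.42) and Col27a1 (6.05), with counts under 3 raised to 3. The cause of these changes was not tested. Median-ratio scaling shifted log2 ratios by 0.28 in FAP-like and 0.22 in tenocyte-like cells. Members with few UMIs, such as Col7a1 and Col25a1, could not be compared at this depth.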
